A study of Arabidopsis thaliana with 4 samples.

Results

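WRKY proteins are a large family of plant transcription factors named after the conserved tryptophan, arginine, lysine and tyrosine of their DNA-binding domain. Through this domain, which also holds a zinc finger, they bind the W-box, a short promoter element with the core TTGAC, and many WRKY genes carry W-boxes in their own promoters. In leaves the family is known for its part in defence signalling, in the responses to abscisic and salicylic acid and in senescence, where several members act downstream of MAP kinases. A list of 41 Arabidopsis thaliana WRKY genes, matched by locus, was followed among the 33059 features of a leaf expression table. The table holds 31 further WRKY genes, 72 in all.

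Leaf RNA came from rosettes of plants aged 28 days and was sequenced. Wild-type plants (WT, 2 libraries) were compared with plants in which the 35S promoter of cauliflower mosaic virus, active in most tissues, drives ERF4 (Pro35S:ERF4; OE, 2 libraries). No treatment is given for either genotype, and the sources used here do not say how many transgenic lines or plants gave the libraries. The spread behind each p-value is that between libraries, and it may be technical. ERF4 is an ethylene response factor that represses transcription. The comparison asks which leaf transcripts differ when it is overexpressed.

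Values are TPM, transcript abundances that are corrected for gene length and scaled to one total per library, so levels of different genes can be compared. The read number behind a value is unknown. ERF4 itself stood at 9.68 and 10.6 TPM in WT, against 24.5 and 28.8 TPM in OE, in the direction of the labels, although the difference did not pass the threshold (limma adjusted p = 0.381). Of 5 leaf mesophyll markers 4 were abundant, and LHB1B2 was listed at 0 in each library. The summed level of these markers was 55309 TPM in WT replicate 1, 22396 in WT replicate 2, 28045 in OE replicate 1 and 44943 in OE replicate 2. All 3 root markers (PYK10, EXP7 and COBL9) were also above 0 in every library, with sums of 2814 to 4140 TPM, nearly all of it from PYK10. The 5 seed markers summed to 42.9 and 50.6 TPM in WT and to 0.51 and 3.77 TPM in OE. SESA1 among them was at 0 in 3 libraries. CRU3, another of the 5, passed the threshold (log2 difference -3.92, limma adjusted p = 0.0182). Its mean in OE was 0.125 TPM, so it was tested only through its WT values. The 3 guard cell markers summed to 73.9 and 90.8 TPM in WT, against 72.2 and 66.3 TPM in OE. Each of these 3 genes overlapped between the genotypes. The sums for phloem, trichomes, flowers and dividing cells overlapped between the genotypes. The part of these markers in the results below was not tested, and in whole leaves fewer cells of a type and less RNA per cell cannot be told apart.

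The 41 genes fall into the family's subgroups I (10 genes), IIa (3), IIb (2), IIc (8), IId (7), IIe (5) and III (6). Subgroup I proteins have a pair of WRKY domains and the others have 1. In the RefSeq reference (assembly TAIR10.1) the coding sequences of all 10 subgroup I genes encoded 2 copies of the 21-base signature stretch that gives the family its name, and those of the other 31 genes encoded 1. WRKY23 and WRKY45, which the reference notes place in group I, encoded 1 copy and are kept in subgroup IIc here. In 40 genes each copy had the common form, and WRKY51 encoded another form. The predicted proteins ranged from 145 residues (WRKY75) to 687 (WRKY2). Below, 63 coding bases are shown for the genes on which the results turn and for WRKY51, with the signature in capitals. The deposited table gives locus names but no positions and its genome build is not given in the sources used here, so sequences and positions were looked up by locus in TAIR10.1. They lie at chr4:523482-523544 (minus strand, WRKY22), chr1:30384768-30384830 (plus, WRKY40), chr4:10062128-10062190 (plus, WRKY28), chr2:9925810-9925872 (plus, WRKY15), chr2:19044292-19044354 (minus, WRKY46) and chr5:25908843-25908905 (plus, WRKY51), each within 1 coding exon.
WRKY22: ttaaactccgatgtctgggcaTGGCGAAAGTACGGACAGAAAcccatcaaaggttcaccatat
WRKY40: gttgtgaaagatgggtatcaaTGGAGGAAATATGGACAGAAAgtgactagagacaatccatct
WRKY28: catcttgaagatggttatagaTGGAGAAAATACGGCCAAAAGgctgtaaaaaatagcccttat
WRKY15: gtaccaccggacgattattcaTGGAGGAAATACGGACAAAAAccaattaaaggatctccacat
WRKY46: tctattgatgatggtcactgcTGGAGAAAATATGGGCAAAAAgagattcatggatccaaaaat
WRKY51: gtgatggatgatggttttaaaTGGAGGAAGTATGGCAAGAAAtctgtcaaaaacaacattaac

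Levels differed widely. By the mean over the 4 libraries WRKY15 was the most abundant at 107 TPM, followed by WRKY45 (89.5 TPM), WRKY57 (59.0 TPM), WRKY11 (47.9 TPM) and WRKY26 (43.7 TPM). The ranges of these 5 genes over the libraries overlapped, and WRKY45 alone ran from 7.69 to 206 TPM, so their order is not firm. At the low end WRKY8, WRKY30, WRKY54, WRKY55 and WRKY74 had means under 1 TPM and were not tested. WRKY55 (AT2G40740), a regulator of senescence and salicylic acid responses, was listed at 0 in 3 libraries and at 0.37 TPM in WT replicate 2. Next to it on the chromosome, WRKY54 had 0.11 and 0.31 TPM in WT, against 0.82 and 0.23 TPM in OE. WRKY30 had 1.60 and 0.27 TPM in WT, against 1.26 and 0.66 TPM in OE. WRKY8 had 0.12 and 1.39 against 0.35 and 0.29 TPM, and WRKY74 had 0.74 and 0.39 against 0.49 and 0.12 TPM. In all 5 of these the genotypes overlapped. Of the 36 tested genes, WRKY46 passed the filter through WT, since its mean in OE was 0.26 TPM.

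**Figure D1:**
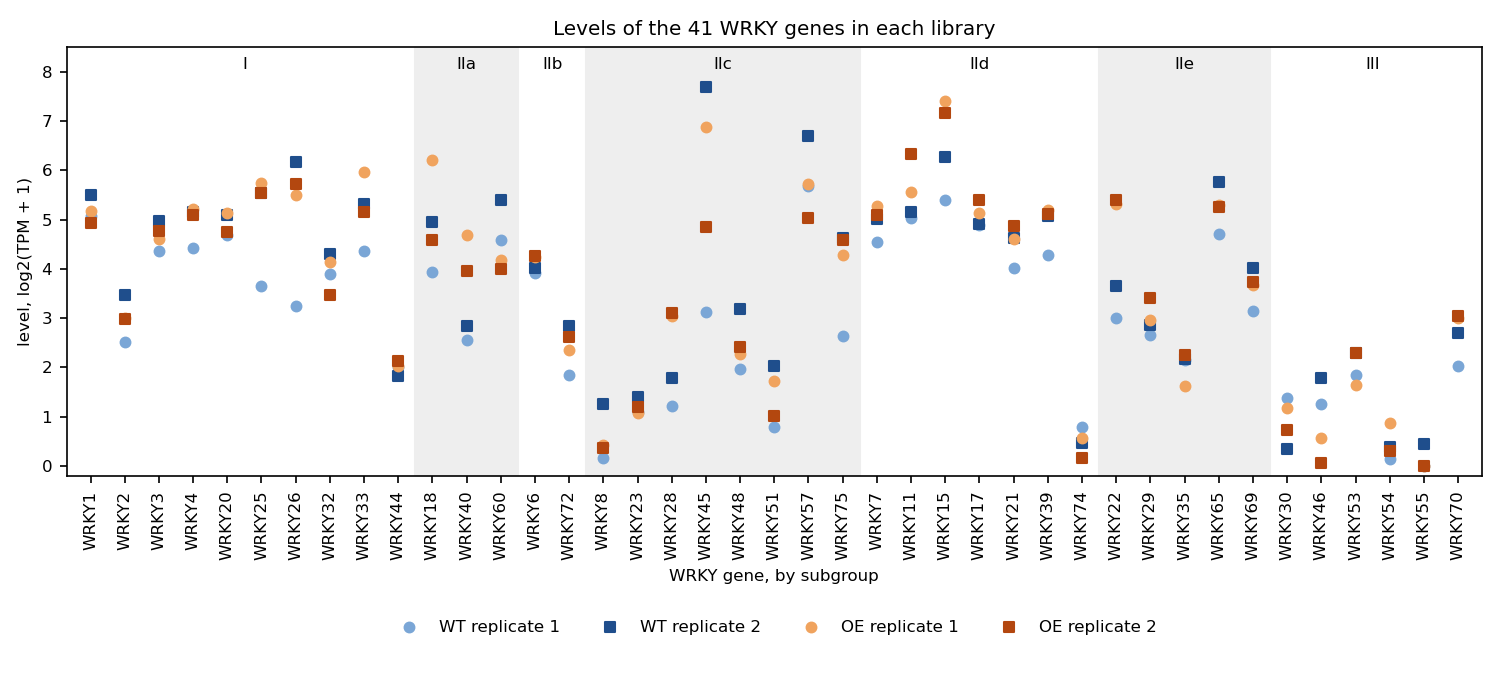
Level of each of the 41 WRKY genes, as log2(TPM + 1), in the 4 libraries, grouped by subgroup (shaded bands). Each point is 1 library. WT replicate 1 (light blue circles) is the lowest point for 27 of the 36 tested genes (75%, against 42.8% of all tested features). WRKY22, WRKY40, WRKY28 and WRKY15 have both OE points well above both WT points.

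No WRKY gene passed the threshold of an adjusted p of 0.05 between OE and WT over all features, on the log2(TPM + 1) scale (limma, Benjamini-Hochberg). Of 20010 tested features 18 did, which is 0.09%. Of the 36 tested WRKY genes 6 had an unadjusted limma p under 0.05, against 1061 of the 20010 tested features. In 13 of the 36 (36.1%) both OE libraries lay above both WT libraries, which was so for 13.7% of all tested features. In 2 (5.56%), WRKY46 and WRKY60, both lay below, against 14.2% of all features. WRKY46, also one of the 6 with an unadjusted limma p under 0.05, passed the filter only through WT. The other 21 overlapped. The median log2 difference was 0.32 over the 36 genes and -0.02 over all features. The difference was positive in 25 genes and negative in 11, against 9657 and 10353 of all features. These counts describe a list chosen with earlier results known, and its members are not independent of one another. The median was 0.31 with quantile normalization and 0.33 with median-ratio scaling, but it depended on the WT libraries. Leaving out WT replicate 1 gave -0.17, beside -0.16 for all features, and leaving out WT replicate 2 gave 0.57, beside 0.14. With 1 library of a genotype left, more features separate by construction. Without WT replicate 1 the OE libraries were both above in 13 genes (36.1%, against 21.9% of all features) and both below in 17 (47.2%, against 48.4%). Without WT replicate 2 they were both above in 28 (77.8%, against 46.9%) and both below in 2 (5.56%, against 24.7%). With OE replicate 1 left out, 15 genes lay above (41.7%, against 24.4%) and 5 below (13.9%, against 37.3%), and with OE replicate 2 left out 17 lay above (47.2%, against 30.2%) and 5 below (13.9%, against 21.1%).

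**Figure D2:**
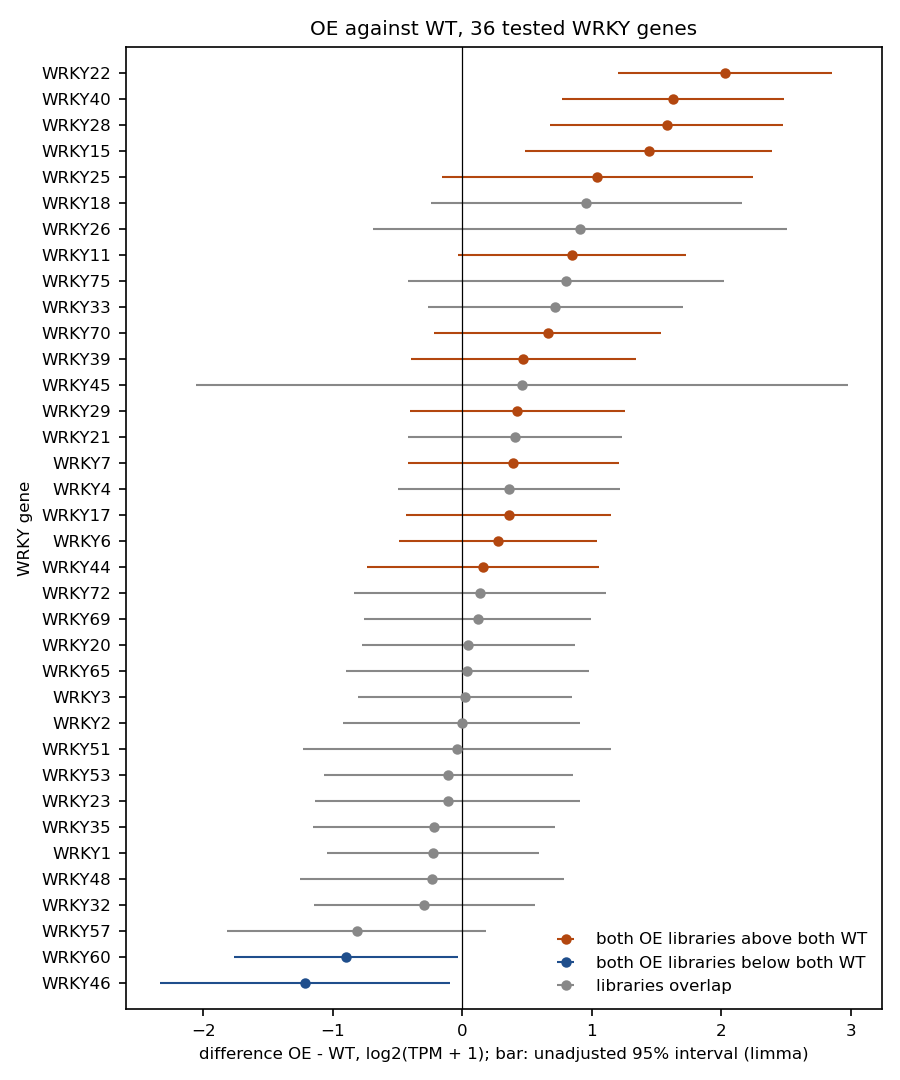
Difference between OE and WT in log2(TPM + 1) for the 36 tested WRKY genes, with the unadjusted 95% interval from limma (n = 2 libraries per genotype). Colour gives whether the libraries of the genotypes separate. The intervals of WRKY22, WRKY40, WRKY28, WRKY15, WRKY60 and WRKY46 leave out 0, and none of the 36 passes after adjustment over all features. WRKY46 passed the filter only through WT.

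Among the 5 genes of subgroup IIe, WRKY22 (AT4G01250) had the largest difference between the genotypes, while WRKY65 had the highest mean level. WRKY22 acts with WRKY29 downstream of the flagellin receptor and its MAP kinases, and in senescence induced by darkness. It was listed at 7.06 and 11.6 TPM in WT, against 39 and 41.3 TPM in OE. The OE libraries were close to each other and both lay above WT, by 4.31 times in the mean (9.31 ± 3.18 against 40.1 ± 1.60 TPM, SD, n = 2). The log2 difference was 2.03 (SE 0.374, interval 1.21 to 2.86, unadjusted p = 0.000226), the largest of the 36 genes, but the adjusted p was 0.122 (limma). With the filter raised to a mean of 5 TPM it was called (limma adjusted p = 0.0155). It was not called with no filter (0.629), with quantile normalization (0.487), with median-ratio scaling (0.480) or with any 1 library left out (0.146 to 0.649). Its difference stayed between 1.71 and 2.35 when any 1 library was left out. For a single gene the smallest p of an exact two-sided permutation test is 0.333 in this design. Its partner WRKY29 (AT4G23550) had 5.28 and 6.26 TPM in WT, against 6.77 and 9.59 TPM in OE, separated but with a log2 difference of 0.43 and an interval from -0.40 to 1.26. WRKY65 (25.03 and 53.5 TPM in WT, against 38.3 and 37.1 TPM in OE), WRKY69 (7.84 and 15.3 against 11.7 and 12.4 TPM) and WRKY35 (3.44 and 3.50 against 2.09 and 3.78 TPM) overlapped.

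The 3 genes of subgroup IIa encode proteins that bind one another and act on defence and on abscisic acid responses. WRKY40 (AT1G80840) was at 4.86 and 6.13 TPM in WT, against 24.8 and 14.5 TPM in OE. Both OE libraries were above WT, and OE replicate 1 was the higher of them. The ratio of means was 3.57 and the log2 difference 1.63 (SE 0.388, unadjusted p = 0.00158, limma adjusted p = 0.259), with 1.26 without OE replicate 1. WRKY18 (AT4G31800) had 14.3 and 29.8 TPM in WT, against 72.9 and 23.02 TPM in OE. Its high value came from OE replicate 1, and without it the log2 difference fell from 0.96 to 0.15. WRKY60 (AT2G25000) went the other way, with 22.99 and 41.3 TPM in WT, against 17.1 and 15.1 TPM in OE (log2 difference -0.90, interval -1.77 to -0.03, limma adjusted p = 0.897). WRKY40 was thus higher and WRKY60 lower in both OE libraries, although neither passed the threshold and the difference between them was not tested.

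Subgroup IId proteins bind calmodulin. All 6 tested genes had a positive log2 difference, against 9657 of the 20010 tested features. In 5 of the 6 (83.3%) both OE libraries lay above both WT libraries, against 13.7% of all tested features. WT replicate 1 was the lowest library in all 6, as it was for 42.8% of all features. WRKY15 (AT2G23320), which is known from oxidative and salt stress, had 41.4 and 76.4 TPM in WT, against 167 and 142 TPM in OE. The lower OE library was still above the higher WT library, with a ratio of means of 2.63. The log2 difference was 1.44 (SE 0.431, unadjusted p = 0.00685, limma adjusted p = 0.472), with 1.01 when WT replicate 1 was left out and 1.87 when WT replicate 2 was. WRKY11 and WRKY17 are related genes that both restrain basal resistance to bacteria. WRKY11 (AT4G31550) had 31.6 and 34.7 TPM in WT, against 45.97 and 79.4 TPM in OE, a log2 difference of 0.85. WRKY17 (AT2G24570) had 28.9 and 29.2 TPM in WT, against 34.2 and 41.1 TPM in OE, a difference of 0.36. Both were separated, and the interval of each included 0 (-0.03 to 1.73 and -0.43 to 1.15). WRKY7, a calmodulin-binding repressor of defence, had 22.5 and 31.4 against 37.7 and 32.9 TPM, and WRKY39, which acts in heat tolerance, 18.4 and 32.9 against 35.5 and 33.6 TPM. For both, the gap between the nearest WT and OE libraries was small. WRKY21 overlapped, with 15.3 and 23.8 TPM in WT, against 23.4 and 28.1 TPM in OE. WRKY74, which was not tested, had a mean of 0.565 TPM in WT, against 0.305 TPM in OE.

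**Figure D3:**
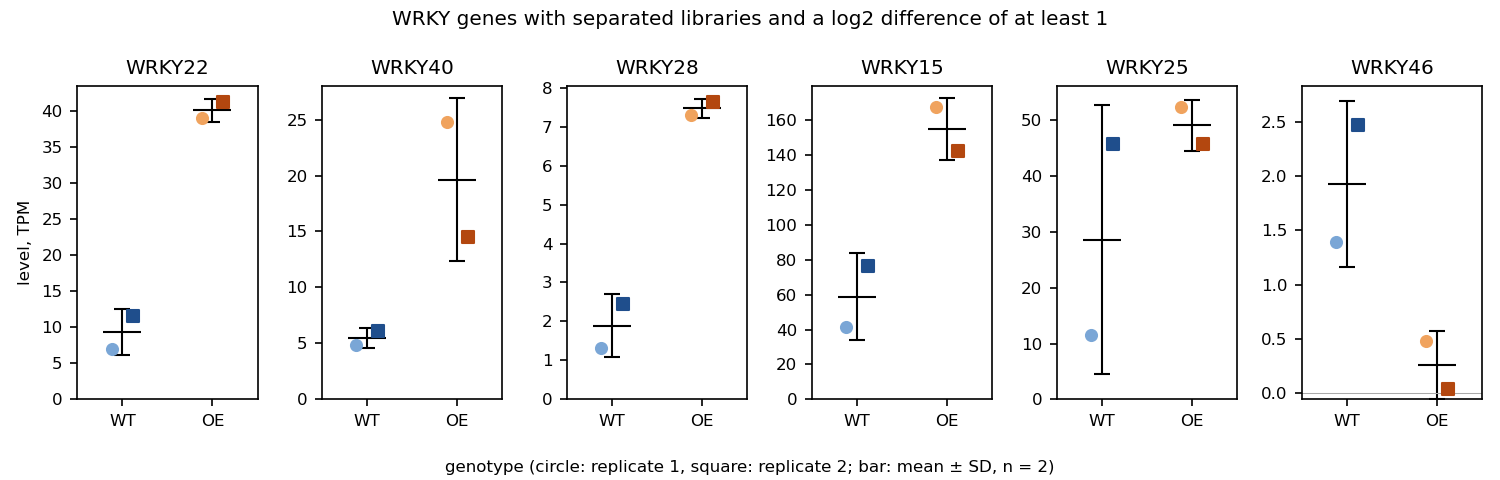
TPM of the 6 WRKY genes with separated libraries and an absolute log2 difference of at least 1, by genotype (circle: replicate 1, square: replicate 2; bar: mean ± SD, n = 2; each panel has its own linear axis). WRKY22 and WRKY28 have OE libraries close together, while the WT libraries of WRKY25 span 11.6 to 45.7 TPM and its OE libraries barely clear the higher one.

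In subgroup IIc the genotypes separated for 1 of 7 tested genes, with OE above WT (14.3%, against 13.7% of all tested features). WRKY28 (AT4G18170), an activator of the salicylic acid synthesis gene ICS1, had 1.32 and 2.46 TPM in WT, against 7.30 and 7.64 TPM in OE. The OE libraries were nearly equal, at 3.95 times the WT mean. Its log2 difference was 1.58 (SE 0.407, unadjusted p = 0.00268, limma adjusted p = 0.320), which understates the change of a gene this low. Against WT replicate 2 alone it was 1.29, and against WT replicate 1 alone 1.87. WRKY45 and WRKY75 encode small, related proteins that promote senescence and act in phosphate starvation. In both, the genotypes overlapped and the WT libraries lay further apart than the OE libraries. WRKY45 (AT3G01970) had 7.69 and 206 TPM in WT, against 117 and 27.8 TPM in OE, a 26.7-fold gap between the WT libraries. WRKY75 (AT5G13080) had 5.25 and 23.6 TPM in WT, against 18.4 and 23.1 TPM in OE. WRKY57 (AT1G69310), which acts in drought tolerance and holds back senescence induced by jasmonate, had 50.2 and 103 TPM in WT, against 51.6 and 31.5 TPM in OE, so OE replicate 1 was just above WT replicate 1. WRKY48, a repressor of basal defence, had 2.93 and 8.08 against 3.83 and 4.36 TPM. WRKY51, a gene of defence under jasmonate, had 0.74 and 3.11 against 2.32 and 1.03 TPM. WRKY23, known from auxin-dependent development, had 1.15 and 1.63 against 1.1 and 1.31 TPM. In these 3 genes the genotypes overlapped.

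Subgroup I holds the heat and defence regulators WRKY25, WRKY26 and WRKY33. WRKY25 (AT2G30250) had 11.6 and 45.7 TPM in WT, against 52.3 and 45.8 TPM in OE. Only WT replicate 1 was apart. The log2 difference was 1.04 (SE 0.542, unadjusted p = 0.0811, limma adjusted p = 1), which was 0.10 against WT replicate 2 alone and 1.99 against WT replicate 1 alone. WRKY26 (AT5G07100) had 8.46 and 70.5 TPM in WT, against 44.4 and 51.5 TPM in OE, and its difference turned from 0.91 to -0.55 without WT replicate 1. WRKY33 (AT2G38470), the MAP kinase substrate that drives camalexin synthesis, had 19.5 and 39 TPM in WT, against 61.3 and 34.8 TPM in OE and overlapped. The trichome and seed coat gene WRKY44, also called TTG2, had 3.02 and 2.56 against 3.09 and 3.37 TPM, separated by little. The other 6 genes overlapped. WRKY3 and WRKY4, which act in resistance to necrotrophic fungi, had log2 differences of 0.02 and 0.36. WRKY1, WRKY2, WRKY20 and WRKY32 had -0.22, -0.0034, 0.05 and -0.29, each with an interval that included 0.

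Of subgroup III, which holds salicylic acid and senescence regulators, 3 of 6 genes were tested. WRKY46 (AT2G46400), a defence factor linked to salicylic acid, had 1.39 and 2.47 TPM in WT, against 0.48 and 0.04 TPM in OE. Both OE libraries were below WT, at levels where the depth behind a value matters and is unknown. The log2 difference was -1.21 (SE 0.506, unadjusted p = 0.0357, limma adjusted p = 0.852). WRKY46 passed the filter only through its WT values, so its p-value is no support for a lower level in OE. Its difference ranged from -2.78 to -0.39 over the 11 settings in which it was fitted, with the pseudocount setting both ends. WRKY70 (AT3G56400), which promotes salicylic acid responses over those of jasmonate, had 3.07 and 5.50 TPM in WT, against 7.04 and 7.2 TPM in OE (log2 difference 0.66, interval -0.22 to 1.54). The senescence regulator WRKY53 (AT4G23810) overlapped, with 2.59 and 3.90 against 2.11 and 3.88 TPM. In subgroup IIb, WRKY6, a senescence and defence factor that also represses the phosphate exporter gene PHO1, had 14.2 and 15.3 TPM in WT, against 17.8 and 18.2 TPM in OE, separated with a log2 difference of 0.27. WRKY72, a gene of basal immunity, had 2.61 and 6.12 against 4.08 and 5.11 TPM and overlapped.

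The WT libraries also differed from each other across the family. WT replicate 2 was above WT replicate 1 in 35 of the 36 tested genes (97.2%), the exception being WRKY44, and in 71.3% of all tested features. It was at least 2-fold higher on the log2(TPM + 1) scale in 9 genes (25%, against 10.8% of all features). It was at least 2-fold lower in 0, against 3.97% of all features. The 9 include WRKY45, WRKY26, WRKY75 and WRKY25, with ratios of 26.7, 8.33, 4.49 and 3.95. WT replicate 1 was the lowest library in 27 genes (75%), which it was for 42.8% of all features, and the highest in 0. OE replicate 2 was lowest in 5 genes (13.9%, against 33.1% of all features) and highest in 10 (27.8%, against 18.7%). The median step from WT replicate 1 to 2 was 0.66 over the 36 genes and 0.33 over all features. With median-ratio scaling, which takes the step of all features to 0.01, it was 0.37 for the family. Under that scaling 29 genes (80.6%) were higher in WT replicate 2, against 50.9% of all features. Those at least 2-fold higher were then 5 (13.9%, against 5.84% of all features). WT replicate 1 was then lowest in 20 (55.6%, against 29.3% of all features). Between the OE libraries, 18 of the 36 genes (50%) were higher in OE replicate 1, as were 62.7% of all features.

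**Figure D4:**
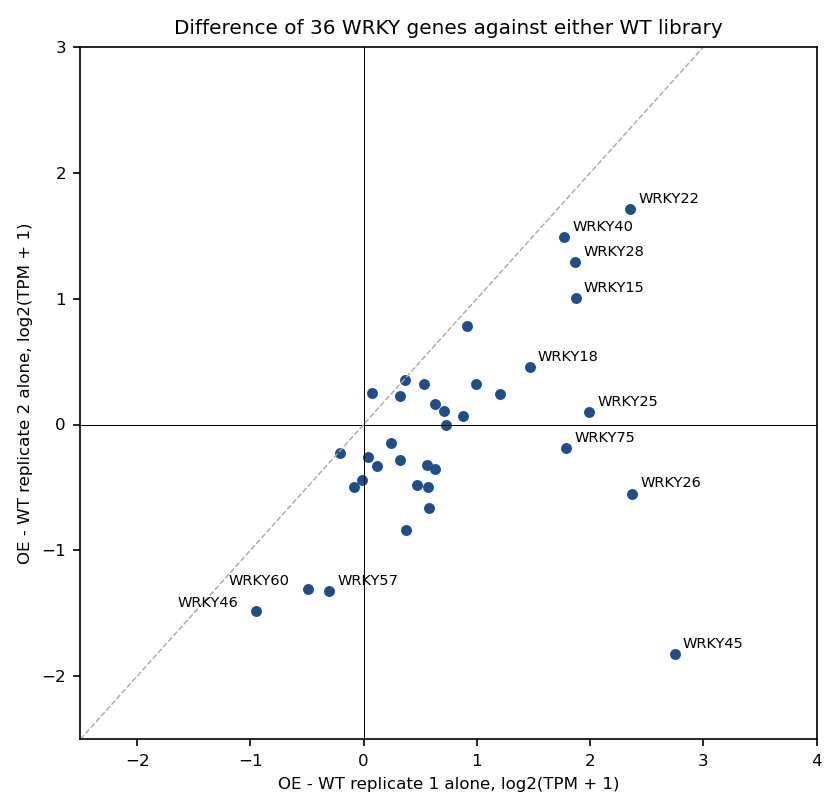
Difference of both OE libraries from WT replicate 1 alone (horizontal axis) and from WT replicate 2 alone (vertical axis), in log2(TPM + 1), for the 36 tested WRKY genes; the axes share the OE libraries, and the dashed line marks equal values. All points but that of WRKY44 lie below the line, WRKY22, WRKY40, WRKY28 and WRKY15 are at or above 1 on both axes, and WRKY45 has 2.75 on one and -1.83 on the other.

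Promoters were read as the 250 bases before the annotated start in TAIR10.1. A W-box core, TTGAC on either strand, was found in 23 of the 41 WRKY promoters (56.1%) and in 44.9% of all 27443 protein-coding promoters. The longer forms TTGACC or TTGACT, which contain that core, were found in 16 (39%) and in 28.4%. The element GCCGCC, bound by many ethylene response factors, was in 3 (WRKY26, WRKY33 and WRKY75; 7.32%) and in 1.87%. In 4 of the 41 windows, those of WRKY7, WRKY25, WRKY26 and WRKY45, part of a neighbouring gene was included. The windows of the 4 genes that were most above WT in OE are shown, with every TTGAC, or its complement GTCAA, in capitals. WRKY15 (chr2:9924636-9924885, plus strand) had 2 cores, WRKY28 (chr4:10060964-10061213, plus) 1, WRKY40 (chr1:30383311-30383560, plus) 1 and WRKY22 (chr4:524250-524499, minus) 0. None of them held GCCGCC. A match describes letters in this window and shows no binding.
WRKY22: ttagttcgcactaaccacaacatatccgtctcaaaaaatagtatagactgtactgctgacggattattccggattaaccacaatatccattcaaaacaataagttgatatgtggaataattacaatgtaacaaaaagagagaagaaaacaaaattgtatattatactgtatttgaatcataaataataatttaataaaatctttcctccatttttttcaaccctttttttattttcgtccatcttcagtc
WRKY40: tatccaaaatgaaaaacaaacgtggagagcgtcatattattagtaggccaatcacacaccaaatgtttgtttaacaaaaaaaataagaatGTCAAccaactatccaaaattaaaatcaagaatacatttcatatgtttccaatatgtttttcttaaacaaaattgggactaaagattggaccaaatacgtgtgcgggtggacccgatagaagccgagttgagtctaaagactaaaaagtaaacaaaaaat
WRKY28: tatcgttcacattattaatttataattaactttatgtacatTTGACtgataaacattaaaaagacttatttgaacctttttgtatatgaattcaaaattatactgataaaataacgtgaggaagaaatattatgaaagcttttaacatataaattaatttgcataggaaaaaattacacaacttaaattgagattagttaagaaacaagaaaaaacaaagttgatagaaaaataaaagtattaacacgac
WRKY15: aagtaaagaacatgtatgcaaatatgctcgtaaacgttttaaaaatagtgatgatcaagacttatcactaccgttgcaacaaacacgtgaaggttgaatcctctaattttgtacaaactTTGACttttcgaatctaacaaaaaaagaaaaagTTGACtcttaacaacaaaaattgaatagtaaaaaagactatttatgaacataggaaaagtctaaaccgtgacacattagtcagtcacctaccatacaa

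Genes around the family were read from lists of its known upstream kinases, partners and targets. None of the 10 receptors and MAP kinases was called, in either direction (limma). The largest log2 differences were 0.97 for the flagellin receptor FLS2 (2.23 and 12.7 TPM in WT, against 8.61 and 16.8 TPM in OE), -0.52 for MKK5, 0.47 for BAK1 and 0.47 for MKK1. WT replicate 1 was lowest in 8 of these 10, as it was for 42.8% of all tested features. Of 6 protein partners 4 were tested and 0 called. The differences were 0.35 for MKS1, 0.20 for JAV1, 0.07 for MVQ1 and 0.03 for the histone deacetylase HDA19. Of 17 reported targets 9 were tested and 0 called. The camalexin enzyme PAD3, a target of WRKY33, had 3.95 and 6.14 TPM in WT, against 2.80 and 0.49 TPM in OE (log2 difference -1.32, limma adjusted p = 0.779). SAG13 had 0.09 and 6.21 against 0.43 and 0 TPM, ACS6 19.2 and 4.72 against 6.89 and 3.89 TPM, and FRK1, a target of WRKY22, 0.27 and 2.13 against 1.32 and 3.42 TPM, each overlapping. ICS1 was lower in both OE libraries (14.1 and 10.6 against 9.27 and 8.19 TPM, log2 difference -0.45). The senescence marker SAG12 was listed at 0 in every library.

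Of the 41 genes 8 overlap an annotated gene on the opposite strand in TAIR10.1 (WRKY1, WRKY2, WRKY4, WRKY29, WRKY33, WRKY40, WRKY53 and WRKY69). Whether strand was used in counting is not given in the sources used here, so reads of the partners may enter these values. For WRKY40 the overlap with AT1G80850 is 51 bases.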

How the data were processed

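RNA sequencing gave 4 libraries, 2 per genotype. The authors deposited TPM per gene and library. The submitters' processing notes name fastp, HISAT and RSEM, without versions or a genome build. The 2 columns of genotype means were not used. WT replicate 2 takes its number from its title, while its column is named WT_3. TPM keeps no read number, so depth is unknown and no counting interval can be had.

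The 20010 features whose mean reached 1 TPM were tested on log2(TPM + 1), which understates changes of low genes, with limma 3.58.1 in R 4.3.3 (variance trend, two-sided, genotype as the only term, 2 residual and 8.73 prior degrees of freedom). P-values were Benjamini-Hochberg adjusted over all tested features. The fit was checked on simulated data. There it recovered 12% of 2-fold changes and 82% of 4-fold changes, and 11 of its 155 calls were false. Most changes of 2-fold were thus missed in the simulated data.

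All 32548 nuclear loci of the table matched RefSeq TAIR10.1, and sequences came from it (Python 3.11.15, biopython 1.88, matplotlib 3.10.9). All 41 genes are given. Full statistics were kept for tested genes with separated libraries and an absolute log2 difference of at least 1. In each list up to 4 genes with the largest differences are named, beside ICS1 and SAG12, which were chosen after their values were seen. Members, lists and rules were chosen with earlier results of these data known. Alternatives were other pseudocounts (0.1 and 5), other filters (none, or a mean of 5 TPM), other scalings (quantile or median-ratio), a block for the replicate number and each library left out in turn.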

Additional observations from a re-analysis of the deposited data

How the results depend on the processing

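The number of WRKY genes called was 0 except with a mean of at least 5 TPM, where it was 1 (WRKY22), and with the replicate block. Calls among all features were 0 with no filter, with quantile normalization and with median-ratio scaling, 63 with a mean of at least 5 TPM, and 0 to 147 with 1 library left out. Unadjusted limma p-values under 0.05 then numbered 1072 with no filter, 1114 with quantile normalization, 1137 with median-ratio scaling, and 1088 and 1707 in the fits without WT replicate 1 or 2, which gave 0 calls. The cause of these shifts was not tested. WRKY genes with the OE libraries above WT numbered 14 with quantile normalization (38.9%, against 16.9% of all features) and 14 with median-ratio scaling (against 17.2%). With 1 library left out they numbered 13 to 28 (36.1% to 77.8%, against 21.9% to 46.9% of all features). Those below numbered 4 with quantile normalization (11.1%, against 17.3%), 4 with median-ratio scaling (against 17.2%) and 2 to 17 with 1 library left out (5.56% to 47.2%, against 21.1% to 48.4%). These counts under other settings were added after seeing the data. The difference of ERF4 kept its sign and stayed short of the threshold in each setting, and those of WRKY22, WRKY40, WRKY28, WRKY15, WRKY25 and WRKY46 kept their sign.

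The replicate numbers pair nothing in the labels, and deviations of libraries with the same number in their titles correlated at 0.0325 across features. With the replicate block the prior degrees of freedom were infinite, against 8.73 in the main fit. Each gene then took the variance of the trend, and its own spread between libraries was set aside. In that fit 338 features and 2 WRKY genes, WRKY22 (limma adjusted p = 0.00221) and WRKY40 (0.0334), were called. Over all 12 settings their adjusted p reached 0.649 and 0.970.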

Other observations

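The table holds 31 other WRKY genes. Of these 15 were tested and 0 called (limma), 6 were listed at 0 in every library, and the tested ones had means of 1.57 to 27.0 TPM. In 4 of the 15 both OE libraries lay above both WT libraries and in 2 below, against 13.7% and 14.2% of all tested features. The largest difference was that of WRKY49 (AT5G43290), picked with its values in view, with 1.56 and 4.56 TPM in WT, against 5.46 and 23.01 TPM in OE (log2 difference 1.72, limma adjusted p = 0.621). Its OE libraries differed from each other more than OE replicate 1 differed from WT.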
